A study of Homo sapiens with 6 samples.

Results

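The homeobox, EYA and DACH genes of the nephron progenitor network were followed as 9 members, namely SIX2, SIX4, SIX5, EYA1, EYA2, EYA3, EYA4, DACH1 and DACH2. They were chosen by name, as genes of the transcription network of nephron progenitors, and each matched 1 of the 60107 Ensembl gene IDs of the raw count table. Sequencing of mRNA gave their levels in H9, an established line of human embryonic stem cells, on day 9 of a directed differentiation toward nephron progenitor cells, the cells of the embryonic kidney from which nephrons form. Of the 6 libraries, 3 came from cells kept in complete medium, which holds glutamine, and 3 from cells deprived of glutamine from the first day of the protocol. All 6 cultures were otherwise the same line on the same protocol, and the labels name no genetic change. The labels do not say whether the replicates were separate differentiations, so the p-values measure the spread between these libraries only.

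SIX2, SIX4 and SIX5 belong to the sine oculis homeobox family of transcription factors, which bind DNA. EYA proteins do not bind DNA themselves but join those homeobox proteins as coactivators and also carry a phosphatase domain, while DACH proteins, relatives of the SKI corepressors, tune the activity of the complex. In the developing kidney SIX2 keeps cap mesenchyme cells in a progenitor state and EYA1 is needed for the metanephric mesenchyme to form. Loss of EYA1 function in people causes branchio-oto-renal syndrome. The same network acts in somites, in sensory placodes and in the eye, so none of these genes marks the kidney alone.

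The libraries held 78220507 to 84746566 counts. Replicate 1 with glutamine stood apart from its group. Its Pearson correlation over genes, themselves no independent replicates, was 0.9758 and 0.9762 with the other libraries with glutamine and 0.9908 to 0.9927 with those without. The tests of the members, and the list and marker genes described singly, are therefore given with and without it. That library was singled out in these same data for its likeness to the other group, so p-values without it are likely too small. For the same reason, differences between the groups and counts of groups lying apart are likely too large without it. The column headings of the count table name days 0 and 9 whereas all samples are labelled day 9, and columns were assigned through the heading that each sample's own description states. The RNA came from whole cultures, so fewer cells that express a gene and less RNA of it per cell cannot be told apart. Levels are given as CPM, the count scaled to the TMM-adjusted library size, and levels of different genes are compared as CPM per kilobase (kb) of exon.

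Measured with all 6 libraries, 8 of the 9 members had a lower mean without glutamine and none passed the test. EdgeR's quasi-likelihood test with Benjamini-Hochberg adjustment called 0 of the 9 at an adjusted p under 0.05, where it called 0.00442% of the 22613 genes tested. At an unadjusted p under 0.05, 6 members were lower (SIX2, SIX4, EYA1, EYA2, EYA4 and DACH2), and none was higher. Of all genes tested, 29.7% passed that limit, 14.7% higher and 15.0% lower. DESeq2 called 5 members lower (SIX4, EYA1, EYA2, EYA4 and DACH2) and 0 higher, where it called 7.54% of 21759 genes higher and 6.44% lower. Those same 5 members were the ones whose groups did not overlap, and all of them were lower without glutamine. Over all genes tested the groups lay apart for 34.2%, with 17.3% higher and 16.9% lower. With replicate 1 with glutamine left out, edgeR called 7 of the 9 lower, all but SIX5 and EYA3. That fit called 41.3% of its 23164 genes, 22.3% higher and 19.0% lower. Without that library the groups did not overlap for 8 members, all but SIX5 and all lower, where 31.2% of all genes were lower and 32.3% higher. The median log2 fold change of the members was -0.92, and -1.19 without that library, beside 0.001 and 0.008 over all genes tested.

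**Figure D1:**
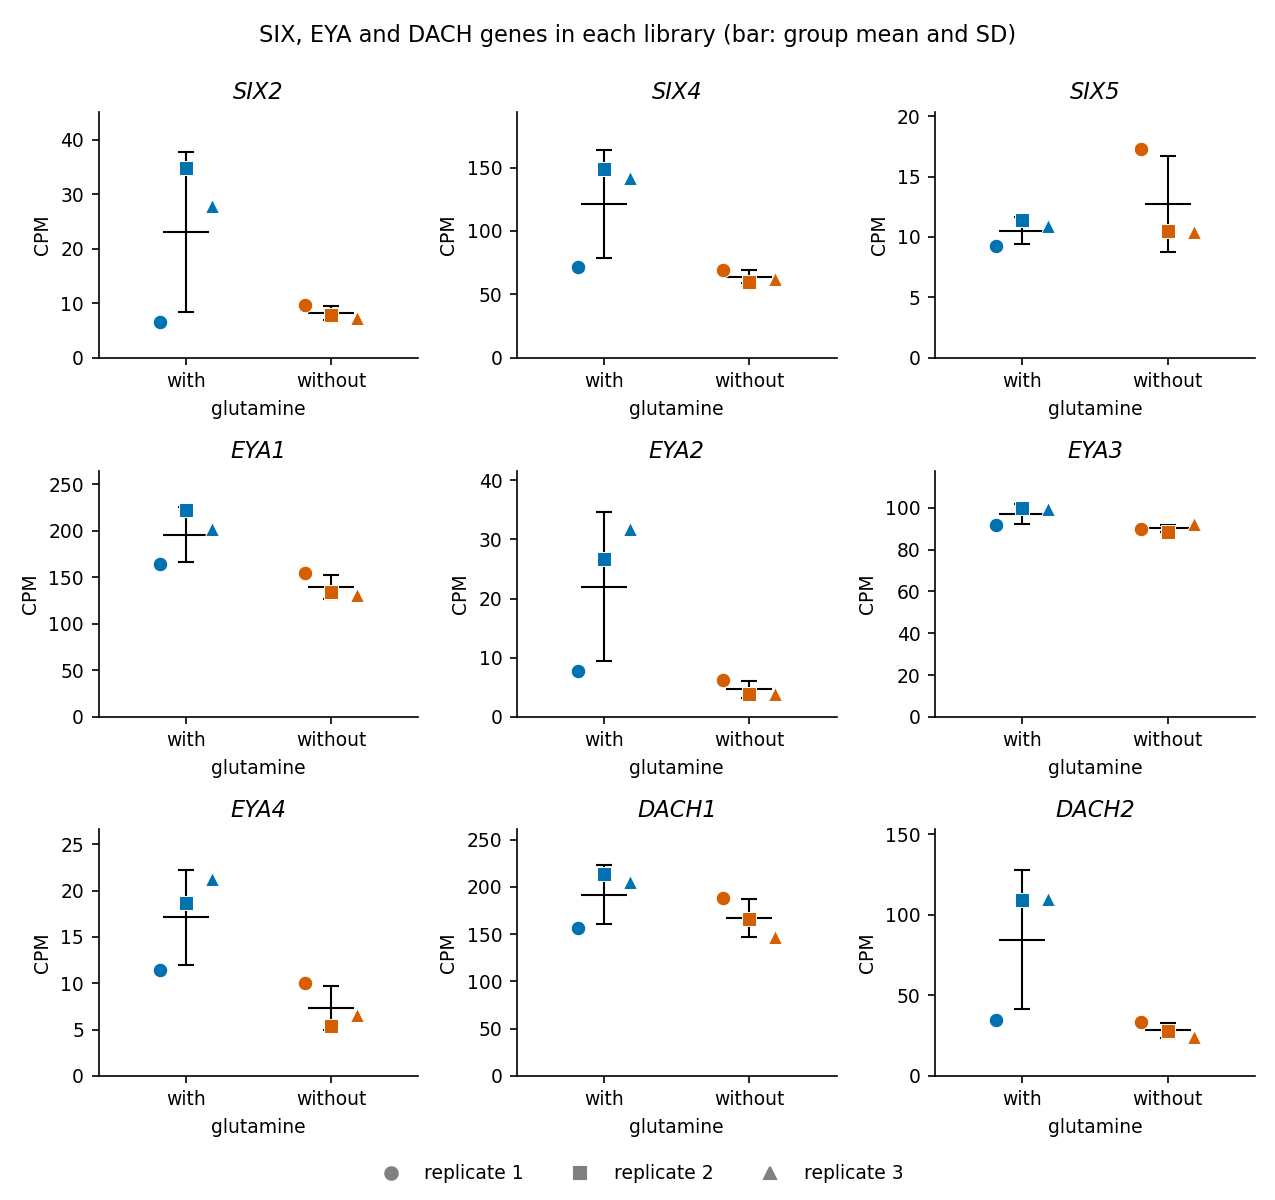
Expression of the 9 genes in CPM (vertical axes, from 0) in cells with and without glutamine, 1 symbol per library, with the group mean and SD as a bar (n = 3). Replicate 1 with glutamine (blue circle) lies near the orange libraries for SIX2, SIX4, EYA2 and DACH2, and EYA3 is nearly flat at 88.5 to 100 CPM.

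SIX2, the factor that holds nephron progenitors undifferentiated, lies on the minus strand of chromosome 2, from 45005161 to 45009430 (GENCODE 29, GRCh38). Its level in replicates 1, 2 and 3 was 6.57, 34.8 and 27.8 CPM where glutamine was present. Where it was absent, SIX2 stood at 9.70, 7.80 and 7.27 CPM. Replicates 2 and 3 with glutamine were the high libraries, and replicate 1 with glutamine was the lowest of all 6, so the groups overlapped. On the log2 scale the difference was -1.48 (SE 0.53 with edgeR, adjusted p 0.126). Without replicate 1 with glutamine it was -1.92 (SE 0.13, edgeR adjusted p 4.77e-06), and the mean of the other libraries with glutamine was 3.79 times the mean without.

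SIX4, a relative that acts in muscle and kidney development, lies on the minus strand of chromosome 14, from 60709528 to 60724348. Its libraries with glutamine held 71.9, 149 and 142 CPM and those without held 69.5, 59.7 and 62.2. All libraries without glutamine were below all with it, although replicate 1 with glutamine exceeded the highest of them only slightly. EdgeR put the log2 fold change at -0.92 (SE 0.26) with an adjusted p of 0.0847, and -1.19 (SE 0.08, edgeR adjusted p 3.61e-06) without that library.

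SIX5, a widely expressed family member next to the myotonic dystrophy gene DMPK on chromosome 19 at 45764785 to 45769226, did not follow the others. With glutamine present the level was 9.28, 11.4 and 10.9 CPM, and 17.3, 10.5 and 10.4 in its absence. Replicate 1 without glutamine was the high library and the groups overlapped. Fitted with edgeR, the log2 difference came to 0.28 (SE 0.21, adjusted p 0.401), and -0.002 with that library left out. Leaving out replicate 1 with glutamine instead gave 0.20 (SE 0.20, edgeR adjusted p 0.451).

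EYA2 showed the largest fold difference of the 9 members. The gene, a coactivator known from somites, limb and muscle precursors, lies on the plus strand of chromosome 20, from 46894624 to 47188844. Replicates 1 to 3 read 7.73, 26.6 and 31.7 CPM with glutamine and 6.29, 3.88 and 3.81 in cells without it. The groups did not overlap, and replicate 1 with glutamine lay far nearer to the libraries without glutamine than to its own group. On the log2 scale the difference was -2.24 (SE 0.51 with edgeR, adjusted p 0.0717), and -2.64 (SE 0.18, edgeR adjusted p 4.85e-06) without replicate 1 with glutamine.

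EYA1, the EYA gene most tied to kidney formation, differed by a smaller factor between the groups. It lies on the minus strand of chromosome 8, from 71197433 to 71592025. Its libraries with glutamine held 164, 222 and 202 CPM and those without held 155, 134 and 131. The groups did not overlap, and the highest library without glutamine was close to replicate 1 with it. EdgeR put the log2 fold change at -0.48 (SE 0.13) with an adjusted p of 0.0796, and -0.59 (SE 0.09, edgeR adjusted p 0.000519) without replicate 1 with glutamine.

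EYA4, a coactivator whose loss causes deafness and heart muscle disease, lies on the plus strand of chromosome 6, from 133240598 to 133532120. With glutamine present the level was 11.4, 18.7 and 21.3 CPM, and 10.0, 5.42 and 6.54 in its absence. The groups did not overlap, but the first replicates of both groups were close to each other. Fitted with edgeR, the log2 difference came to -1.22 (SE 0.30, adjusted p 0.0737), and -1.44 (SE 0.20, edgeR adjusted p 0.000402) without replicate 1 with glutamine.

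EYA3, the broadly expressed member of the family, lies on chromosome 1 at 27970344 to 28088696. Replicates 1 to 3 read 91.7, 100 and 99.7 CPM with glutamine and 90.0, 88.5 and 92.1 in cells without it. The groups overlapped and the whole range was narrow. On the log2 scale the difference was -0.11 (SE 0.07 with edgeR, adjusted p 0.307), and -0.15 (edgeR adjusted p 0.0934) without replicate 1 with glutamine.

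DACH2 and DACH1 differed from each other in how far their groups lay apart. DACH2, known from limb and muscle, lies on the X chromosome at 86148458 to 86832604 and stood at 34.7, 109 and 110 CPM in the libraries with glutamine and 33.3, 27.7 and 23.8 in those lacking it. Only replicates 2 and 3 with glutamine were high, and replicate 1 with glutamine was just above the highest library without. EdgeR put the log2 fold change at -1.58 (SE 0.41) with an adjusted p of 0.0796, and -1.95 (SE 0.12, edgeR adjusted p 1.9e-06) without replicate 1 with glutamine. DACH1, the DACH gene found in kidney progenitors and podocytes, lies on chromosome 13 at 71437966 to 71867192 and stood at 156, 214 and 205 CPM in the libraries with glutamine and 188, 166 and 147 in those lacking it. Its groups overlapped, with replicate 1 with glutamine inside the range of the group without. Fitted with edgeR, the log2 difference came to -0.20 (SE 0.14, adjusted p 0.364), and -0.33 (SE 0.10, edgeR adjusted p 0.0227) without replicate 1 with glutamine.

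**Figure D2:**
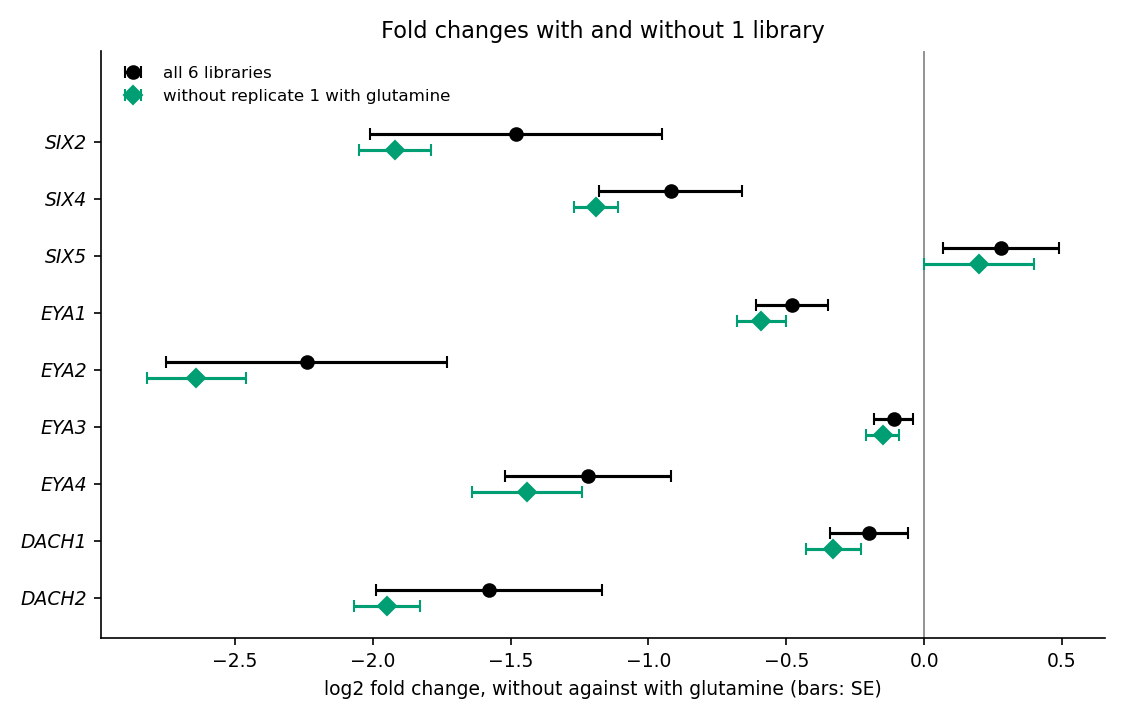
Log2 fold change without against with glutamine (horizontal axis, bars give the SE) for each gene, with all 6 libraries (black) and without replicate 1 with glutamine (green). Leaving out that library moved SIX2 from -1.48 to -1.92 and narrowed its SE from 0.53 to 0.13, and it left SIX5 and EYA3 uncalled.

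The lowest counts behind these values were 299 for EYA2, 425 for EYA4 and 533 for SIX2. Counting error at those depths is 5.78%, 4.85% and 4.33%, which is far below the differences between replicate 1 and replicates 2 and 3 with glutamine. That error covers counting alone.

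Per kb of exon, counted as the union over all annotated transcripts of a gene, DACH1 was the most abundant member and EYA4 the least. For EYA1 that union is 9418 bases and the longest transcript 4326, against 5389 and 5233 for DACH1. The place of EYA1 in this order, above or below DACH1, therefore depends on the length used. Mean levels over the 6 libraries were 33.3 CPM per kb for DACH1, 17.8 for EYA1, 14.5 for EYA3, 13.9 for SIX4, 8.02 for DACH2, 7.10 for SIX2, 3.69 for EYA2, 3.27 for SIX5 and 1.36 for EYA4. By the union length, DACH1 exceeded EYA1 in 6 of 6 libraries, and SIX4 exceeded DACH2 in 6 of 6. By the same length, several neighbours in that order were not separated. The longest transcripts of EYA1 and EYA3 are 4326 and 6085 bases, so the closeness of these genes depends on that length too. EYA1 exceeded EYA3 in 5 of 6 libraries, EYA3 exceeded SIX4 in 4 of 6, DACH2 exceeded SIX2 in 5 of 6 and EYA2 exceeded SIX5 in 2 of 6. SIX4 was above EYA3 only in replicates 2 and 3 with glutamine, at 22.4 and 21.3 CPM per kb against 15.5 and 15.4.

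The make-up of each family differed between libraries as well as its total. The summed level of the EYA genes was 35, 48.5 and 47.9 CPM per kb with glutamine and 33.2, 29.5 and 29.9 without. These groups did not overlap, and the exact two-sided permutation p was 0.1, the smallest that 3 against 3 libraries allow (adjusted over 3 sums 0.3). The sum of DACH1 and DACH2 was 33.9, 55.1 and 53.8 CPM per kb with and 39.6, 34.7 and 30.6 without (exact permutation p 0.3). The sum of SIX2, SIX4 and SIX5, which does not cover the rest of their family, was 16.4, 41.4 and 37.0 with and 19.7, 15.5 and 15.6 without (exact permutation p 0.2). In these last sums replicate 1 with glutamine lay inside the range of the other group. With it left out, the mean sums without glutamine were lower by a difference of -17.3 CPM per kb for EYA, -19.5 for DACH and -22.3 for SIX2, SIX4 and SIX5.

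EYA1 held a steady share of the EYA total while the shares of EYA2 and EYA3 differed between the groups in opposite directions. The shares of a family make up a whole, so a lower share of EYA2 goes with higher shares elsewhere. The level of EYA3 itself had a log2 fold change of -0.11, with overlapping groups. The share of EYA1 was 49.8%, 48.6% and 44.7% with glutamine and 49.6%, 48.1% and 46.6% without (exact permutation p 0.9). EYA2 held 6.11%, 15.2% and 18.3% with glutamine and 5.23%, 3.63% and 3.51% without. EYA3 held 40.5%, 31.9% and 32.1% with and 41.8%, 46.2% and 47.5% without. The groups did not overlap for EYA2, EYA3 or EYA4. EYA4 held 4.30% ± 0.659 with and 2.62% ± 0.679 without (SD, n = 3).

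DACH2 held 14.5%, 28.0% and 29.2% of the DACH total with glutamine and 11.9%, 11.3% and 11% without, DACH1 being the remainder. Among SIX2, SIX4 and SIX5, SIX2 held 18.2%, 38.1% and 34.1% with and 22.3%, 22.9% and 21.2% without, and its groups overlapped. SIX5 held 15.9%, 7.72% and 8.30% with and 24.7%, 19.1% and 18.8% without, with no overlap. For EYA2, EYA3, EYA4, DACH1, DACH2 and SIX5 the exact two-sided permutation p of the share was 0.1, the smallest possible, and 0.15 after adjustment over 9 shares. Shares within a family are not independent, and the levels of EYA3, DACH1 and SIX5 themselves overlapped between the groups. Leaving out replicate 1 with glutamine gave share differences, without minus with, of -14.0 percentage points for SIX2, -12.6 for EYA2, 13.1 for EYA3 and -17.2 for DACH2.

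**Figure D3:**
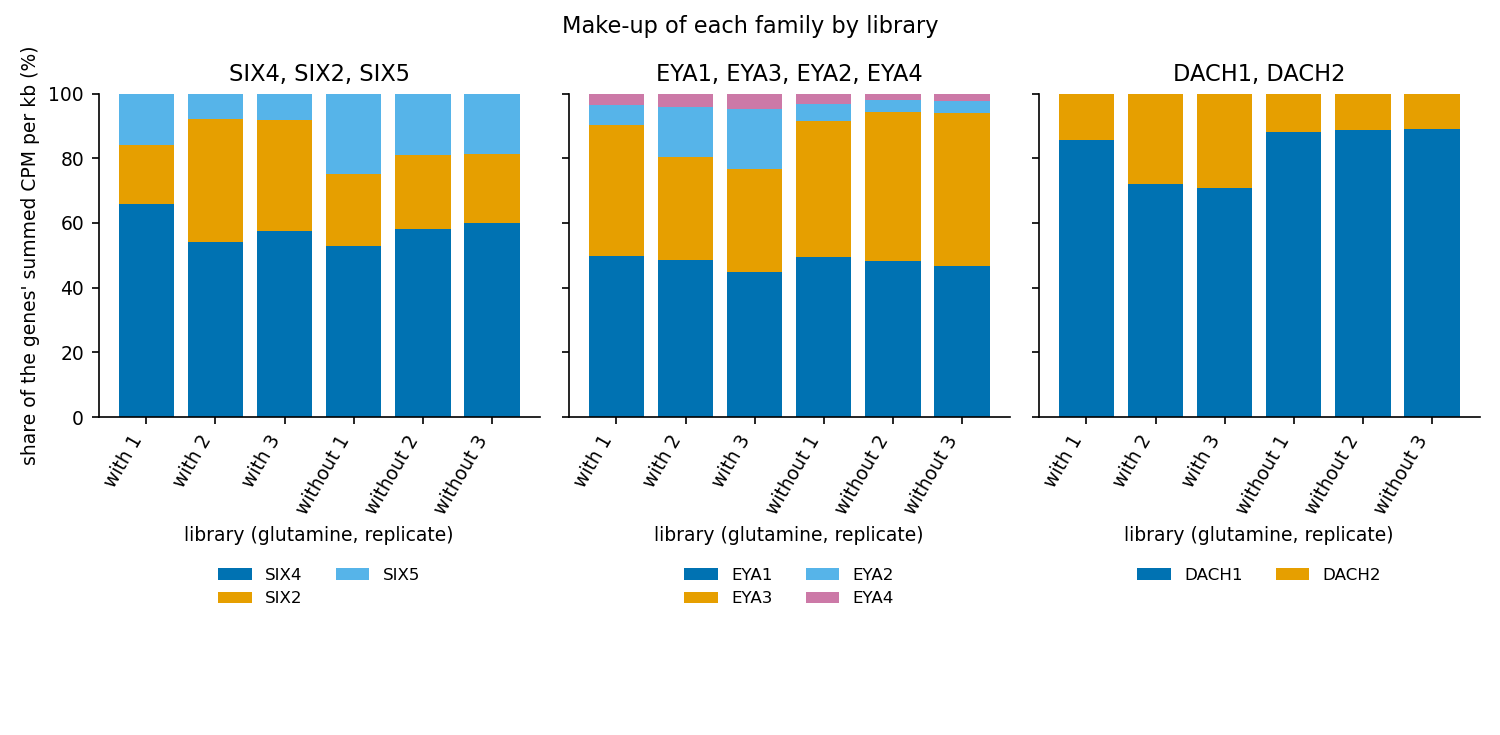
Share of each gene in the summed CPM per kb of its family (stacked bars, in percent) in each of the 6 libraries. Replicates 2 and 3 with glutamine show the wider bands of SIX2, EYA2 and DACH2, whereas EYA1 stays between 44.7% and 49.8% in every library.

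Promoter sequence was set beside these patterns for the genes with an entry in the RefSeq promoter table (GRCh38.p14), which were 6 of the 9, DACH2 with 2 start sites of which the first is shown. The 250 bases before the transcription start are shown for SIX2 (chr2:45009453-45009702, minus strand) and DACH2 (chrX:86148201-86148450, plus strand), whose groups differed by -1.48 and -1.58 on the log2 scale, and for DACH1 (chr13:71867205-71867454, minus strand), at -0.20. All 3 had their highest levels in replicates 2 and 3 with glutamine. Each is written 5′ to 3′, and capitals mark a match to the motif TCANGTTTC, known for sine oculis homeobox proteins, searched on both strands.
SIX2: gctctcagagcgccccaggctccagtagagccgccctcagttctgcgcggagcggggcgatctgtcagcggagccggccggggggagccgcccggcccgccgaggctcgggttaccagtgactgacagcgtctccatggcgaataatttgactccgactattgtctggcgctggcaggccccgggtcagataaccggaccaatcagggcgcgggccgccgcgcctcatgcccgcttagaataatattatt
DACH2: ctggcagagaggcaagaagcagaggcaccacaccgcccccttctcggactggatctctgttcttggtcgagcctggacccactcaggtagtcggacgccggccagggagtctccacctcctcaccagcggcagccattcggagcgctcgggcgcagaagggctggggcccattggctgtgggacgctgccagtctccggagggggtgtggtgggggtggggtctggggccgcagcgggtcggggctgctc
DACH1: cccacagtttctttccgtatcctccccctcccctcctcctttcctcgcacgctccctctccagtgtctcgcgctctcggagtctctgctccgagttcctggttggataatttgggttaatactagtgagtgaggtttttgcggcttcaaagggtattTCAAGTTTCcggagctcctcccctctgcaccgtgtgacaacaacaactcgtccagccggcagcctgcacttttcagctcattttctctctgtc
The motif was found in the DACH1 window alone among these 6 genes, as TCAAGTTTC beginning 93 bases before the start, and in 0.832% of the 35116 promoter windows of the table. No window of the 6 held the TATA box letters TATAAA, which 10.7% of all windows held. The GC content was 65.6% for SIX2, 69.2% for DACH2 and 54.0% for DACH1, against a median of 58.0% in the table. A match to letters is a description and not evidence of binding.

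Genes whose profile over the 6 libraries was nearest to that of SIX2, EYA1 and DACH1 were found by the root mean square difference of mean-centred log2 CPM, among 11705 named genes with a mean of at least 5 CPM. The long noncoding RNA TBILA (difference 0.185), the neurofilament gene NEFL (0.195) and the forkhead gene FOXI2 (0.199) were among the 4 nearest to SIX2, and only 4 genes lay within 0.2. NEFL stood at 50.6, 266 and 279 CPM in the libraries with glutamine and 61.2, 61.0 and 54.5 in those lacking it (-1.75 on the log2 scale, and -2.21 when replicate 1 with glutamine was left out). The nearest member was DACH2, 13th in the order. For EYA1 the 4 nearest were RAD52 (0.041), ITGA8 (0.042), FAM110B (0.043) and SHPRH (0.043). ITGA8, the integrin of kidney mesenchyme that binds nephronectin, stood at 210, 302 and 281 CPM in the libraries with glutamine and 207, 175 and 181 in those lacking it, and its log2 fold change was -0.63 when replicate 1 with glutamine was left out. For DACH1 they were NDUFAF3 (0.031), FHOD3 (0.038), PTP4A3 (0.041) and HSF1 (0.041). Closeness was common for those, since 2132 genes lay within 0.2 of EYA1 and 4105 within 0.2 of DACH1.

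Other genes of the pathway were read from 4 lists. No gene on them was called with all 6 libraries by edgeR. The corepressors and partners of the network proteins, such as the TLE, SKI, NCOR and HDAC genes, had a median log2 fold change of 0.04. Of the 16 tested, 2 (TLE4 and H2AX) lay higher and 2 (NCOR1 and EP300) lay lower with groups apart, beside 17.3% and 16.9% of all genes. At an unadjusted edgeR p under 0.05, 3 were higher and 1 lower, beside 14.7% and 15.0% of all genes. DESeq2 called 2 and 0, beside 7.54% and 6.44%. EdgeR called 5 higher and 2 lower once replicate 1 with glutamine was left out, against 22.3% and 19.0% of all genes in that fit. The median of the 16 was then 0.06. H2AX, the histone variant that EYA phosphatases act on, stood at 62.9, 50.9 and 55.8 CPM in the libraries with glutamine and 156, 99.9 and 83.3 in those lacking it (log2 fold change 1.0, edgeR adjusted p 0.0706, and 1.09 with 0.00332 when replicate 1 with glutamine was left out). Here replicate 1 with glutamine lay with its own group. TLE1, a Groucho-family corepressor, stood at 104, 71.0 and 68.8 CPM in the libraries with glutamine and 117, 104 and 117 in those lacking it (0.47, edgeR adjusted p 0.118, and 0.69 with 0.00011 when that library was left out). TLE2 was under 1 CPM in every library.

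Nephron progenitor genes beside the network lay on both sides. Of 16 genes tested, 4 were higher and 4 lower without overlap, beside 17.3% and 16.9% of all genes. The median log2 fold change of the 16 was 0.46. Without adjustment, 5 were higher and 5 lower at an edgeR p under 0.05, beside 14.7% and 15.0% of all genes. DESeq2 called 2 higher and 3 lower, beside 7.54% and 6.44%. The higher ones were GDNF, the ligand that draws the ureteric bud, and the posterior HOX genes HOXA11, HOXC11 and HOXD11. HOXD11 stood at 0.542, 0 and 0.0127 CPM in the libraries with glutamine and 3.22, 5.33 and 6.05 in those lacking it (edgeR adjusted p 0.068). HOXC11 stood at 0.246, 0 and 0 CPM in the libraries with glutamine and 1.79, 3.55 and 2.56 in those lacking it (edgeR adjusted p 0.068). HOXA11 stood at 1.21, 0.0384 and 0.0764 CPM in the libraries with glutamine and 3.45, 5.26 and 3.64 in those lacking it (edgeR adjusted p 0.0722). For these HOX genes replicate 1 with glutamine lay above replicates 2 and 3 and below every library without. Leaving it out gave edgeR adjusted p-values of 2.26e-06 for HOXD11, 6.77e-05 for HOXC11 and 4.4e-06 for HOXA11. The lower ones were CITED1, ITGA8, ROBO2 and FGF20, the last under 0.5 CPM in every library. Without replicate 1 with glutamine, edgeR called 9 of the 16 higher and 6 lower, against 22.3% and 19.0% of all genes in that fit.

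Early nephron genes come on as progenitors leave the SIX2-positive state. Of 10 genes tested, 5 were higher and 0 lower without overlap, beside 17.3% and 16.9% of all genes. The median log2 fold change of the 10 was 1.23. The groups overlapped for WNT4, PAX8, CDH6, FGF8 and LEF1, and LEF1 had a log2 fold change of -0.48. At an unadjusted edgeR p under 0.05, 3 were higher and 1 lower, beside 14.7% and 15.0% of all genes. DESeq2, which gave no adjusted p for WNT4, called 1 and 0, beside 7.54% and 6.44%. LHX1 stood at 71.8, 4.51 and 4.66 CPM in the libraries with glutamine and 137, 114 and 89.5 in those lacking it (2.07, edgeR adjusted p 0.217). Its value was 4.63 (edgeR adjusted p 1.93e-07) with replicate 1 with glutamine left out. WNT4 stood at 26.0, 1.31 and 0.942 CPM in the libraries with glutamine and 29.6, 24.9 and 30.3 in those lacking it (1.58, edgeR adjusted p 0.342), and leaving out the same library gave 4.65 (edgeR adjusted p 9.41e-08). For LHX1 and WNT4 alike, replicate 1 with glutamine was many times higher than replicates 2 and 3, the libraries where SIX2, EYA2 and DACH2 were high. Without that library, edgeR called 8 of the 10 higher and 1, LEF1, lower, against 22.3% and 19.0% of all genes in that fit. The median of the 10 was then 2.17.

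A list of genes known in textbooks as targets of the network was read in the same way. Of 7 tested, 5 were higher and 0 lower without overlap, beside 17.3% and 16.9% of all genes. The median log2 fold change of the 7 was 0.58. Without adjustment, 5 were higher and 0 lower at an edgeR p under 0.05, beside 14.7% and 15.0% of all genes. DESeq2 called 4 higher and 0 lower, beside 7.54% and 6.44%. GDNF stood at 20.9, 9.46 and 8.45 CPM in the libraries with glutamine and 33.3, 38.8 and 28.0 in those lacking it (1.37, edgeR adjusted p 0.0762, and 1.90 with 6.59e-06 when replicate 1 with glutamine was left out). The cyclin gene CCND1 stood at 364, 88.6 and 96.4 CPM in the libraries with glutamine and 560, 467 and 412 in those lacking it (1.39, edgeR adjusted p 0.142, and 2.38 with 8.27e-07 when that library was left out). CCNA1 was under 1 CPM throughout. GDNF and SALL1 stand on this list and on the progenitor list, and CCND1 stands on this list and on the early nephron list. Without replicate 1 with glutamine, edgeR called 6 of the 7 higher and 1, MYC, lower, against 22.3% and 19.0% of all genes in that fit.

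**Figure D4:**
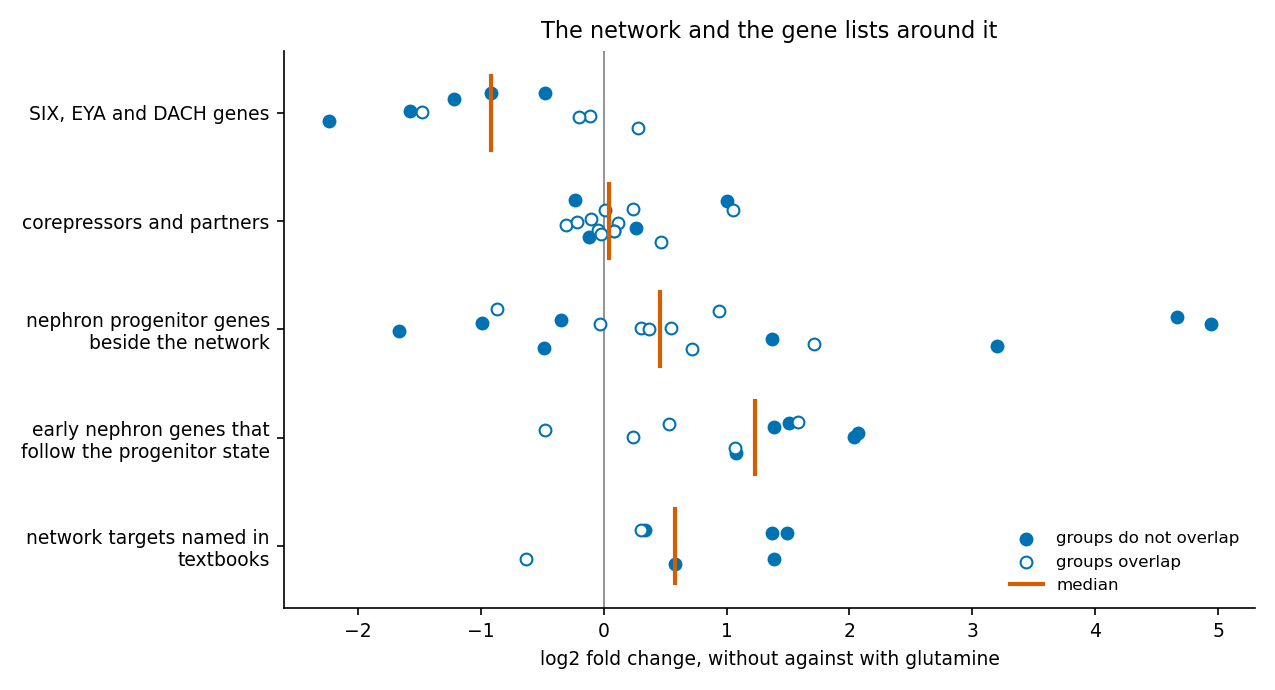
Log2 fold change without against with glutamine (horizontal axis) of each gene of the network and of the 4 lists around it, filled where the groups do not overlap, with the median of each list as a vertical bar. The network has its median at -0.92 and the early nephron genes theirs at 1.23.

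Markers of other cell types that use these genes were set beside the network. Counts of markers without overlap, here and for the types below, stand beside 17.3% higher and 16.9% lower of all genes tested. Of the 9 paraxial mesoderm and somite markers, 7 were tested and 2, MEOX2 and MESP2, were lower without overlap. Their summed level was 167 to 282 CPM with glutamine and 159 to 225 without, and no marker was at 0 in every library. PAX3, a factor of somites and of the neural tube, stood at 20.8, 115 and 118 CPM in the libraries with glutamine and 22.4, 12.4 and 13.4 in those lacking it (log2 fold change -2.40, edgeR adjusted p 0.0786, and -2.85 with 5.24e-06 when replicate 1 with glutamine was left out). MEOX2 stood at 4.54, 15.7 and 14.7 CPM in the libraries with glutamine and 4.16, 4.26 and 4.32 in those lacking it (-1.46, edgeR adjusted p 0.0899, and -1.84 with 6.52e-07 when that library was left out). Both were picked out after their values were seen, and both had their high values in the same libraries as SIX2, EYA2 and DACH2. TCF15 also had its high values there, at 2.13, 7.34 and 8.03 CPM with glutamine and 3.09, 2.49 and 1.92 without. Its log2 fold change was -1.22 (edgeR adjusted p 0.142), and -1.61 (edgeR adjusted p 5.95e-05) when replicate 1 with glutamine was left out. FOXC2 and TBX6 did not have this pattern. FOXC2 read 102, 80.3 and 72.3 CPM with glutamine and 137, 113 and 90.3 in cells without it (log2 fold change 0.42, and 0.58 when replicate 1 with glutamine was left out). MEOX1 had a log2 fold change of -0.03, and -0.26 when that library was left out. MYOD1 was at 0 in all 3 libraries without glutamine and in replicate 1 with it, and MESP2, MYF5 and MYOD1 were under 1 CPM throughout. At those low levels, these genes too were highest in replicates 2 and 3 with glutamine. The part of paraxial cells in the network's values was not tested.

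Of the 6 ureteric and nephric duct markers tested, 3 (GATA3, EMX2 and WNT11) were higher and 0 lower without overlap, and their sum was 16.0 to 88.5 CPM with glutamine and 103 to 143 without. EMX2 stood at 65.2, 3.76 and 3.79 CPM in the libraries with glutamine and 122, 111 and 84.9 in those lacking it (2.13, edgeR adjusted p 0.216, and 4.82 with 1.02e-07 when replicate 1 with glutamine was left out), and made up most of the sum in replicate 1 with glutamine and in the libraries without. RET and TFAP2B had log2 fold changes of -0.31 and -0.89, with overlapping groups, and 0.27 and -0.77 when that library was left out. The nephron progenitor markers summed to 401 to 712 CPM with glutamine and 667 to 836 without, with 1 of 6 (HOXD11) higher and 1 (CITED1) lower without overlap. OSR1 followed SIX2, at 16.4, 39.9 and 35.4 CPM with glutamine and at 17.3, 16.4 and 16.6 without (log2 fold change -0.87, and -1.16 when that library was left out). PAX2 ran the other way, at 150, 17.0 and 12.9 CPM with glutamine and at 245, 200 and 146 without (1.71, and 3.72 when that library was left out). The markers of the labelled cell type therefore did not share 1 pattern, and SIX2 and PAX2 were high in different libraries.

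Kidney stroma markers summed to 451 to 641 CPM with glutamine and 506 to 743 without, with TCF21 higher and FOXD1 lower without overlap among 5 tested. FOXD1 stood at 0.776, 2.89 and 2.97 CPM in the libraries with glutamine and 0.593, 0.625 and 0.509 in those lacking it (-1.93, and -2.34 when replicate 1 with glutamine was left out). TCF21 ran the other way, at 3.96, 0.64 and 0.395 CPM with glutamine and 7.17, 9.37 and 10.6 without. Its log2 fold change was 2.43, and 4.13 when that library was left out. TBX18, PDGFRA and MEIS1, which made up most of the sum, overlapped between the groups. Their log2 fold changes were 0.59, 0.26 and 0.06, and 1.0, 0.52 and 0.13 when that library was left out. Neural and placode markers summed to 63.5 to 68.0 CPM with and 63.2 to 79.2 without, with POU3F2 higher and PAX6 and NEUROG2 lower without overlap among 6 tested. For POU3F2 the groups barely lay apart, since the highest library with glutamine and the lowest without both rounded to 47.9 CPM. Of 7 such markers, SOX1, NEUROG1, NEUROG2 and DLX5 were under 1 CPM in every library. The 4 pluripotency markers summed to 340 to 436 CPM with and 337 to 407 without, nearly all of it DPPA4, higher without overlap, and LIN28A, lower without overlap. NANOG and POU5F1 were under 1 CPM in every library. The part of these cell types in the network's values was not tested.

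**Figure D5:**
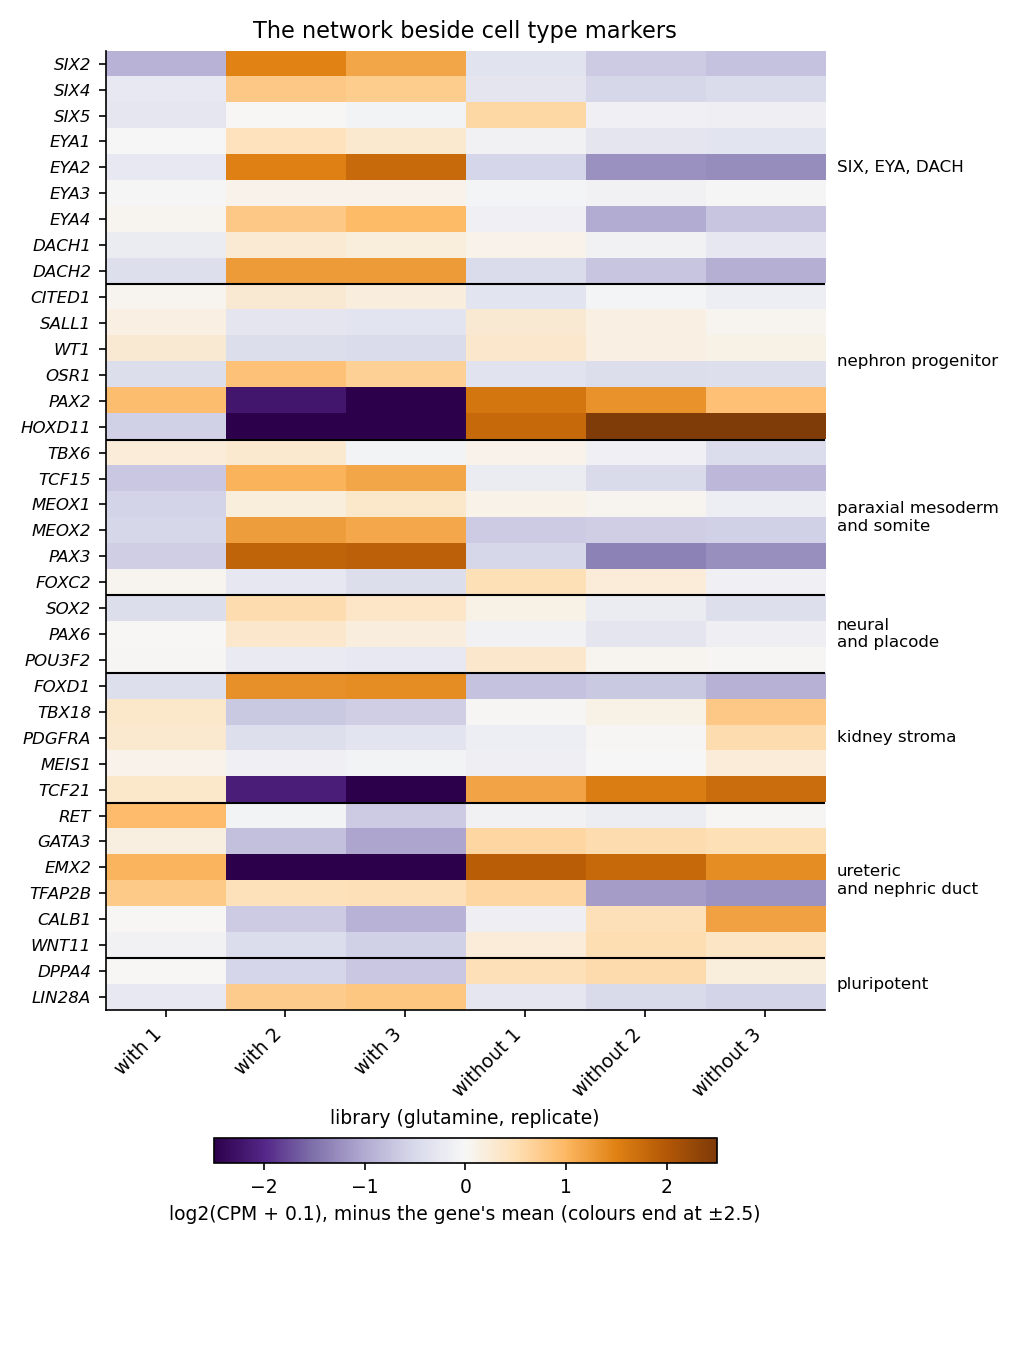
Log2(CPM + 0.1) minus the gene's mean over the 6 libraries (colour, orange high and purple low, ending at 2.5 either way) for the 9 genes and for the cell type markers that reached 2 CPM in a library. SIX2, EYA2, DACH2, PAX3 and MEOX2 are highest in replicates 2 and 3 with glutamine, and PAX2, EMX2 and HOXD11 are lowest there.

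Several members share their locus with other annotated genes, and the strand setting of the counting is not given in the sources used here, so reads of opposite strands may not be separable. The antisense RNA TARID overlaps EYA4 and is known to act at the neighbouring TCF21 gene. It had 78, 51 and 45 counts with glutamine and 121, 124 and 142 without, against 425 to 1676 counts for EYA4, and it was picked out after its values were seen. Counts of the genes overlapping EYA1 were at most 38, and those overlapping SIX5 at most 186 beside 753 to 1492 for SIX5 itself. SIX2 and SIX4 overlapped no other annotated gene.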

How the data were processed

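Libraries of mRNA from 6 samples, 3 with and 3 without glutamine, were analysed from the raw counts per Ensembl gene that the authors deposited. The authors also deposited normalized counts, a signal equal to the raw count divided by 1 size factor per library (0.977 to 1.08), used in 1 alternative only. Per the submitters' processing notes, GRCh38, cutadapt, Trim Galore, FastQC, STAR 2.5.2b and DESeq2 were used. The counting program, annotation and strand setting are not given in the sources used here. Each sample's group and replicate came from its title.

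Under R 4.3.3, edgeR 4.0.16 fitted the counts of all genes and tested them by quasi-likelihood (legacy = FALSE). Libraries were scaled by TMM, and filterByExpr kept 22613 of 60107 genes with 99.95% of the counts. All 9 members were kept. Benjamini-Hochberg adjusted p-values were read at 0.05, and the SE is the absolute log2 fold change divided by the square root of F. Exon lengths came from GENCODE 29, as the union of exons over all transcripts of a gene. DESeq2 1.42.0 and limma 3.58.1 were alternatives. DESeq2 gave no adjusted p for some genes, WNT4 among them, so its list counts can rest on fewer genes than stated as tested. Same-numbered libraries did not deviate together (correlations -0.02, 0 and 0.03). On simulated counts of the comparison of all 6 libraries (22160 genes, 200 changed), 61% of changes of 1 and 92% of changes of 2 on the log2 scale were recovered, with 10 false calls. The simulated counts were drawn independently, with changes placed only in well-counted genes and no library shifted as a whole. That recovery therefore does not describe the real comparison, where replicate 1 with glutamine stood apart from its group.

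The members, the lists and the tests were chosen with earlier results of these data known. The text names all members, the 3 genes of each list with the largest fold change, the 4 genes nearest to SIX2, EYA1 and DACH1, and markers or other list genes picked after their values were seen. Some genes that this rule names are not reported here.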

Additional observations from a re-analysis of the deposited data

How the results depend on the processing

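The fit was repeated under 17 alternatives, and the gene lists and other named genes were added to them after the data were seen. The count of 0 called members became 5 under DESeq2, and it ran from 0 to 7 with 1 library left out, the 7 coming without replicate 1 with glutamine. In the other alternatives it stayed 0, the replicate block included. With the block SIX2 had a log2 fold change of -1.24 and DACH2 of -1.44, and no pairing by number was seen. Of 153 member values, 12 became called, 1 reversed and the remaining 140 neither reversed nor crossed the limit. With 1 library left out, the log2 fold change ran from -1.92 to -1.07 for SIX2, from -2.64 to -1.88 for EYA2, from -1.95 to -1.35 for DACH2 and from -0.002 to 0.41 for SIX5. The median of the corepressors and partners was -0.0023 under upper quartile scaling, against 0.04. All 30 differences of the family sums kept their direction. Differences in share, without minus with glutamine, ran from -4.76 to 1.12 percentage points for SIX4 and from -1.08 to 1.49 for EYA1 with 1 library left out, and were -2.23 and 0.429 with all. The cause of the difference between edgeR and DESeq2 was not tested. Between 3 and 3 libraries a permutation p cannot fall under 0.1, which limits the family sums and shares.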
